A study of Mus musculus with 6 samples.

Results

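The genes of the LIF, JAK and STAT3 pathway described here were followed in mouse embryonic stem cells that carry either wild-type (WT) Trim71 or its R783H form, an amino-acid change that the series links to hydrocephalus. The 10 genes were taken by name from the 27179 identifiers of the count table. They are the receptor subunits Lifr and Il6st, the kinases Jak1 and Jak2, the transcription factor Stat3, its feedback inhibitor Socs3, and the targets Pim1, Pim3, Junb and Gbx2. All 10 passed the filter on low counts and were among the 14199 genes tested. Both groups derive from ES-E14TG2a cells and both carry a FLAG tag on Trim71, so no untagged parental cells enter the comparison. The cells grew on gelatin with LIF at 1000 U/mL together with 3 µM CHIR99021, a GSK3 inhibitor, and 1 µM PD0325901, a MEK inhibitor. All 6 libraries, 3 per group, were therefore made under direct stimulation of the pathway described here, and no library without LIF was analysed here. The labels do not say whether the replicate letters A, B and C are separate clones, cultures or library preparations, so the p-values measure only the spread between these libraries, which may be technical.

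LIF is a cytokine that binds LIFR, which pairs with gp130, the protein that Il6st encodes. The paired receptor activates the kinases JAK1 and JAK2, which phosphorylate STAT3, and phosphorylated STAT3 enters the nucleus and drives the genes that sustain self-renewal of mouse embryonic stem cells. SOCS3 is induced by STAT3 and shuts off the receptor and its kinases. The same receptor also feeds the phosphatase SHP2, the product of Ptpn11, and through it the MAPK branch. Activity of STAT3 depends on phosphorylation, which RNA levels do not report.

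Total counts were 27807385 to 29079670 per R783H library and 20894277 to 25174121 per WT library. Each pair of libraries differed by more than sampling noise, with a chi-square per degree of freedom of 1.95 to 11.6 within groups and 70.4 to 86.4 between them, and R783H B stood furthest from its group. CPM values are read counts scaled to a common library size with TMM factors. Trim71 mRNA, whose sequence but not necessarily level the change affects, was at 129 to 152 CPM in R783H and 131 to 159 in WT, and did not pass the test (log2 0.03, SE 0.08). With an offset for transcript length and GC content Trim71 turned to -0.22 (SE 0.07) and was called lower (edgeR adjusted p 0.00787). The stem cell label matched its markers: 8 of 8 naive markers were tested, with summed levels of 5532 to 5809 CPM in R783H and 5803 to 5861 in WT. The sum hides opposite changes, with 3 called higher and 3 lower (75% called, beside 64.5% of all tested genes). Tbx3 (log2 0.20), Dppa5a (0.30) and Fgf4 (0.31) were higher, and Pou5f1 (-0.21), Nanog (-0.23) and Zfp42 (-0.36) lower. Sox2 and Esrrb were not called. The 7 fibroblast markers summed to at most 3.86 CPM in any library, with Dcn and Postn at 3 counts or fewer throughout. The 6 primitive endoderm markers summed to 10.2 to 11.04 CPM in R783H and 5.14 to 7.48 in WT, the 4 trophoblast markers to 32.0 to 37.2 and 50.5 to 55.0, and the 4 primed epiblast markers to 187 to 197 and 216 to 219. The largest part of the endoderm sum was Gata4, at 6.68 ± 0.510 CPM in R783H and 3.19 ± 0.800 in WT (SD, n = 3 each). Sox7, which was not tested, went the other way, with 3, 2 and 4 counts in R783H and 15, 9 and 19 in WT. The trophoblast sum is mostly Eomes, at 32.9 ± 2.42 CPM in R783H and 46.3 ± 2.25 in WT (SD, n = 3 each). The primed sum is mostly Dnmt3b, at 178 ± 4.76 CPM in R783H and 210.2 ± 1.55 in WT (SD, n = 3 each). Otx2, another primed marker, went the other way, from 2.77 ± 0.292 CPM in WT to 11.4 ± 0.546 in R783H (SD, n = 3 each; log2 2.04, SE 0.11; edgeR adjusted p 1.16e-07). No defining marker was at 0 in all 6 libraries. The part of these differences in the pathway results was not tested, and in bulk RNA fewer cells of a type and less RNA per cell cannot be told apart.

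In R783H cells the 4 receptor and kinase mRNAs were higher, the mRNAs of Stat3, Socs3 and Pim1 did not pass the test, and the targets Pim3, Junb and Gbx2 were lower. The rises ran from 1.16-fold for Jak1 to 1.89-fold for Jak2, and the falls from 0.86 of the WT level for Pim3 to 0.69 for Junb. The calls of Lifr and Pim3 were lost when the trend with transcript length and GC content was removed, and that fit called Stat3 lower and Socs3 higher. Lifr also overlapped between the groups, and its call was lost without R783H A, R783H C, WT A or WT B. A gene was called when its adjusted p over all tested genes, from the quasi-likelihood test of edgeR, was under 0.05. Of the 10 genes 7 met this, 4 higher and 3 lower. Over all tested genes 64.5% were called, 33.5% higher and 30.9% lower, so a share of 7 in 10 is near the background and is not a result about the pathway. CPM did not overlap between the groups for 7 of the 10 genes, against 68.1% of all tested genes. These are not the same 7 genes as those called. Lifr was called but overlapped, whereas Pim1 was not called and its groups barely parted, at 71.89 CPM in R783H B and 71.90 in WT C. A call with a change of at least 1.5-fold was made for 2 genes, Il6st and Jak2, against 24.6% of all tested genes. The median log2 fold change of the 10 genes was 0.02, against 0.03 over all tested genes.

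**Figure D1:**
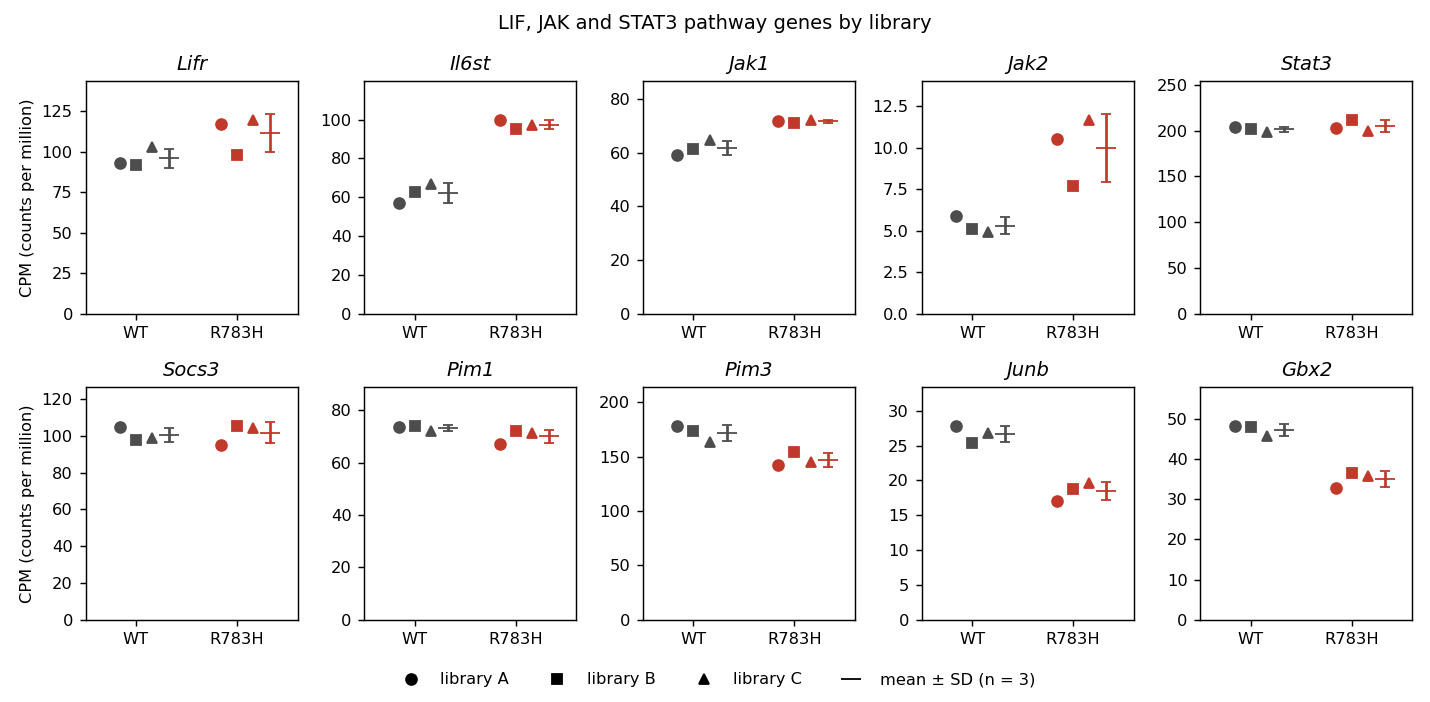
CPM of the 10 pathway genes in each library (grey, WT; red, R783H; circle, square and triangle, libraries A, B and C), with mean ± SD of the 3 libraries beside the points; every vertical axis starts at 0. Il6st, Jak1 and Jak2 lie higher in every R783H library, Pim3, Junb and Gbx2 lie lower, and Lifr, Stat3 and Socs3 overlap. The groups of Pim1 nearly meet, at 71.89 CPM in R783H B and 71.90 in WT C.

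Upstream sequence is shown for 3 genes that stand for the 3 behaviours: Il6st, which rose, Socs3, which did not pass the test, and Junb, which fell. Each run comes from the 250 bases before the start listed by RefSeq on GRCm38.p6, on the gene's own strand. The run of Socs3 stops 85 bases short of that start, before an exon of a non-coding Socs3 transcript in GENCODE M21. Il6st lies at chr13:112463820-112464069 on the plus strand, Socs3 at chr11:117969452-117969616 on the minus strand, and Junb at chr8:84978749-84978998 on the minus strand. Capitals mark 2 motifs: TTCNNNGAA, the palindromic core bound by STAT proteins, and CCAAT on either strand, the core bound by NF-Y.
Il6st: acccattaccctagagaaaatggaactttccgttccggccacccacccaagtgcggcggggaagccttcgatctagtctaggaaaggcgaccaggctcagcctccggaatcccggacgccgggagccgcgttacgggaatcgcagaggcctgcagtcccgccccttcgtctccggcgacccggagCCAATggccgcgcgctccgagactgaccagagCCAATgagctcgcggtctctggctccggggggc
Socs3: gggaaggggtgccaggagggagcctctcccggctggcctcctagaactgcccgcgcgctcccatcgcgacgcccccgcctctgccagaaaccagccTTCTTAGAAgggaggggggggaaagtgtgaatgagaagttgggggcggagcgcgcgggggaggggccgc
Junb: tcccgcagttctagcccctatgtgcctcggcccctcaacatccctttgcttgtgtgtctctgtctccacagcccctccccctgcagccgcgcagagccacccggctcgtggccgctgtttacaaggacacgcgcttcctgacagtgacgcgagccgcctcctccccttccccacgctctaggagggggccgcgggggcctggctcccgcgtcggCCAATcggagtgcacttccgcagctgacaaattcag

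Socs3 was the only one of the 10 genes with TTCNNNGAA in this window, where its single match, TTCTTAGAA, begins 154 bases before the start. The motif is in 7.02% of the 32851 windows of the same length and in 8.13% of the 27025 genes they belong to. RefSeq's own gene span for Socs3 extends further upstream than the start used here. The longest coding transcript of Socs3 in GENCODE M21 begins 180 bases further downstream than the RefSeq start, so the window does not reach that second start. CCAAT was found 2 times in Il6st, on the gene strand, beginning 65 and 33 bases before the start, and 1 time in Junb, 36 bases before it. Pim3 held 2 matches on the other strand, and Jak1, Stat3 and 1 of the 2 starts of Lifr held 1 each. Both Lifr windows, chr15:7129322-7129571 and chr15:7140292-7140541, lie inside RefSeq's span for the gene, which begins at 7090610. The longest coding transcript of Lifr in GENCODE M21 begins 24781 and 13811 bases downstream of these 2 starts. Over all windows 33.8% hold CCAAT. The windows of all 10 genes were searched, and those of Jak2, Pim1 and Gbx2 held neither motif. A match is a string in the reference and no measurement of binding, and sites outside the window were not searched. The whole windows of these 3 genes are rich in G and C, at 66.0% in Il6st, 71.6% in Socs3 and 66.4% in Junb, against a median of 52.4% over all windows.

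The receptor subunits came first. Il6st encodes gp130, the signalling subunit shared by LIF, IL-6 and related cytokines, and it lies at chr13:112464070-112506860 on GRCm38.p6, which corresponds to the mm10 build named in the submitters' processing notes. Across libraries A to C it gave 99.9, 95.4 and 97.0 CPM with R783H and 56.9, 62.7 and 67.0 CPM with WT. The lowest R783H library was far above the highest WT library. Mean levels were 97.4 ± 2.32 and 62.2 ± 5.06 CPM (SD, n = 3 each). This is a 1.57-fold rise with a 95% interval of 1.43 to 1.72 (log2 0.65, SE 0.06; edgeR adjusted p 3.57e-06).

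Lifr encodes the subunit that gives the receptor its specificity for LIF (chr15:7090610-7197489). In libraries A to C its level was 117, 97.8 and 120 CPM with R783H and 92.9, 91.6 and 103 CPM with WT. R783H B lay below WT C, so the groups overlapped, while R783H A and C were above every WT library. On the log2 scale the difference was 0.22 (SE 0.08; edgeR adjusted p 0.0243). This call was lost without R783H A (adjusted p 0.104), R783H C (0.107), WT A (0.0836) or WT B (0.102), in edgeR, and over 16 alternatives the adjusted p ran from 6.62e-05 to 0.107. Without R783H B, the lowest of the R783H libraries for Lifr, the log2 fold change was 0.28.

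The 2 subunits act as a pair, so their ratio was computed within each library from CPM per kb of the longest annotated transcript. Lifr over Il6st was 1.05, 0.922 and 1.11 in R783H libraries A to C and 1.47, 1.31 and 1.38 in the WT ones. Every R783H ratio was below every WT ratio, with means of 1.03 ± 0.0960 and 1.39 ± 0.0777 (SD, n = 3 each). The two-sided exact permutation test gave p = 0.10, the smallest value that 3 libraries against 3 allow.

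Jak2 (chr19:29251803-29313095), a receptor-bound kinase best known for cytokine and growth hormone signalling, had the largest fold change of the 10 genes and the lowest level. Libraries A to C held 317, 218 and 346 counts with R783H and 119, 125 and 105 with WT. This corresponds to 10.5, 7.68 and 11.7 CPM against 5.89, 5.10 and 4.92 CPM. The groups did not overlap, although R783H B was closer to WT than A and C were. R783H was 1.89-fold higher with a 95% interval of 1.49 to 2.38 (log2 0.92, SE 0.15; edgeR adjusted p 3.19e-04). The log2 value was 1.05 without R783H B and 0.78 without R783H C.

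Jak1 (chr4:101151974-101265282), the kinase on which gp130 signalling chiefly depends, moved less. Libraries A to C gave 71.9, 71.1 and 72.2 CPM with R783H and 59.1, 61.4 and 64.6 CPM with WT. The R783H libraries lay within a narrow band above all WT libraries. Its rise was 1.16-fold (log2 0.22, SE 0.05; edgeR adjusted p 0.00245). The ratio of Jak1 to Jak2 in CPM per kb was 7.61 ± 1.66 in R783H and 12.0 ± 1.61 in WT (SD, n = 3 each), and the ratios of the groups did not overlap (two-sided exact permutation p = 0.10, the smallest possible).

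Stat3 (chr11:100886806-100939594) is the transcription factor at which the pathway converges, and its own gene is among its known targets. From A to C the libraries gave 203, 212 and 200.2 CPM with R783H and 204, 202 and 199 CPM with WT. The groups overlapped. R783H stood at 1.02 times WT, with a 95% interval of 0.95 to 1.08 (log2 0.02; edgeR adjusted p 0.625). Scaling by library size alone moved it to 0.11, where it was called (edgeR adjusted p 0.0339), whereas the length and GC offset gave -0.12 and called it lower (edgeR adjusted p 0.00721). Over 16 alternatives the adjusted p reached 0.981, and 2 called it.

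Socs3 (chr11:117966079-117970336), the feedback inhibitor induced by STAT3, stood at 95.1, 105 and 104 CPM in R783H libraries A to C and at 105, 97.9 and 98.6 CPM in the WT ones. R783H A was the lowest of the 6 libraries and WT A the highest of WT, and the groups overlapped. The ratio of R783H to WT was 1.01, with a 95% interval of 0.93 to 1.10 (log2 0.02; edgeR adjusted p 0.793).

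Pim1 (chr17:29490785-29496111) encodes a serine/threonine kinase that promotes survival and is a classical STAT target. Its level in libraries A to C was 67.2, 71.9 and 71.1 CPM with R783H and 73.7, 74.0 and 71.9 CPM with WT. The R783H libraries lay just below the lowest WT library. R783H stood at 0.96 of WT, with a 95% interval of 0.89 to 1.03 (log2 -0.06; edgeR adjusted p 0.267). Without R783H B the log2 value was -0.10 and was called lower (edgeR adjusted p 0.0477), while over 16 alternatives the adjusted p reached 0.739.

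Pim3 (chr15:88862194-88865726), a related kinase whose gene responds to LIF in these cells, was the most abundant of the 10 per kb of the longest transcript. Libraries A to C gave 142, 154 and 145 CPM with R783H and 178, 174 and 163 CPM with WT. Every R783H library was below every WT library. R783H stood at 0.86 of the WT level (log2 -0.22, SE 0.05; edgeR adjusted p 0.00207). Scaling by library size alone gave a log2 value of -0.14, still called, whereas the length and GC offset gave -0.01 and ended the call (edgeR adjusted p 0.770).

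Junb (chr8:84976909-84978748), an AP-1 transcription factor and an immediate early target of LIF, had the largest fall. Libraries A to C gave 17.0, 18.8 and 19.6 CPM with R783H and 27.8, 25.4 and 26.8 CPM with WT. The groups were well apart. R783H reached 0.69 of the WT level, with a 95% interval of 0.62 to 0.77 (log2 -0.53, SE 0.07; edgeR adjusted p 6.13e-05).

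Gbx2 (chr1:89927962-89931176), a homeobox gene induced by LIF and STAT3 that can sustain self-renewal when overexpressed, fell by a similar amount. Libraries A to C gave 32.9, 36.6 and 35.8 CPM with R783H and 48.2, 47.9 and 45.6 CPM with WT, again without overlap. It reached 0.74 of the WT level, with a 95% interval of 0.68 to 0.81 (log2 -0.43, SE 0.06; edgeR adjusted p 6.19e-05). In GENCODE M21, 946 of the 2177 nt of merged Gbx2 exons are also annotated, on the opposite strand, as D130058E05Rik. Pim1 shares 488 nt with Gm26885, Junb 173 nt with Prdx2, Stat3 72 nt with Stat5a and Jak1 4 nt with Raver2, all on the opposite strand. The strand setting of the counting is not stated, so reads from these stretches cannot be told apart from those of the antisense partner.

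**Figure D2:**
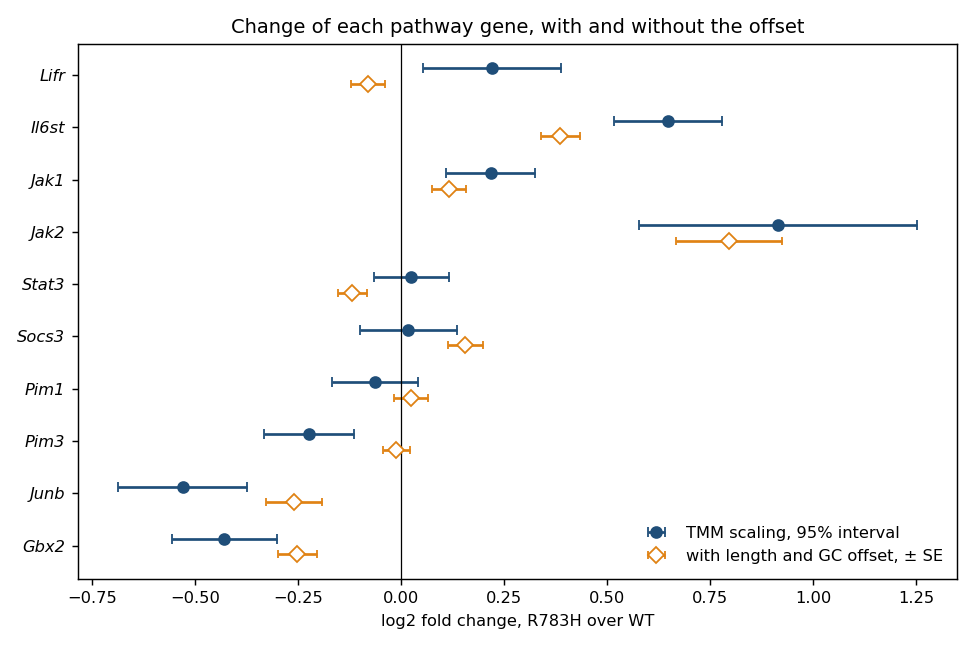
Log2 fold change of each gene, R783H over WT, on the horizontal axis: filled circles with 95% intervals come from the fit with TMM scaling, and open diamonds with ± SE from the fit with an offset for transcript length and GC content. Il6st and Jak2 lie to the right and Junb and Gbx2 to the left of 0 in both fits, whereas Lifr moves from 0.22 to -0.08 and Pim3 from -0.22 to -0.01.

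Among the 10 genes, those that rose have long transcripts of lower GC content and those that fell have short ones of higher GC content. The 4 receptor and kinase genes have longest annotated transcripts of 4906 to 9655 nt with 44.3% to 47.6% GC, whereas Socs3 and the 4 targets have 1809 to 2698 nt with 56.0% to 62.6% GC. Over the 13067 tested genes with both values, the median log2 fold change was -0.15 in the shortest of 4 equal length classes (up to 2184 nt) and 0.22 in the longest (4793 nt and above). All 4 genes that rose fall into the longest class, and Junb and Gbx2 into the shortest. Stat3, at 6042 nt, is also in the longest class and had a log2 fold change of 0.02. Called genes of the other pathway lists lay on both sides of the trend. Stat5b (5213 nt), Pias1 (5564 nt) and Tfcp2l1 (9269 nt) rose, and Cntfr (1995 nt) and Bcl3 (1850 nt) fell, which follows it. Against it, Ptpn11 (7442 nt), Gab1 (4985 nt) and Sall4 (5073 nt) fell, while Pramel7 (1861 nt) and Ier3 (1131 nt) rose. These are examples, and the genes on each side were not counted.

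With an offset that removes the trend with length and GC in each library, Il6st stayed higher at 0.39 (SE 0.05), Jak2 at 0.80 (SE 0.13) and Jak1 at 0.12 (SE 0.04). Junb stayed lower at -0.26 (SE 0.07) and Gbx2 at -0.25 (SE 0.05). Lifr changed sign to -0.08 and Pim3 moved to -0.01, and neither was called (edgeR adjusted p 0.0948 and 0.770). Stat3 was then called lower at -0.12 (adjusted p 0.00721) and Socs3 higher at 0.16 (adjusted p 0.00422), both in edgeR. The count remained 4 higher and 3 lower, but of different genes. Whether length and composition take part in the differences between the groups was not tested.

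**Figure D3:**
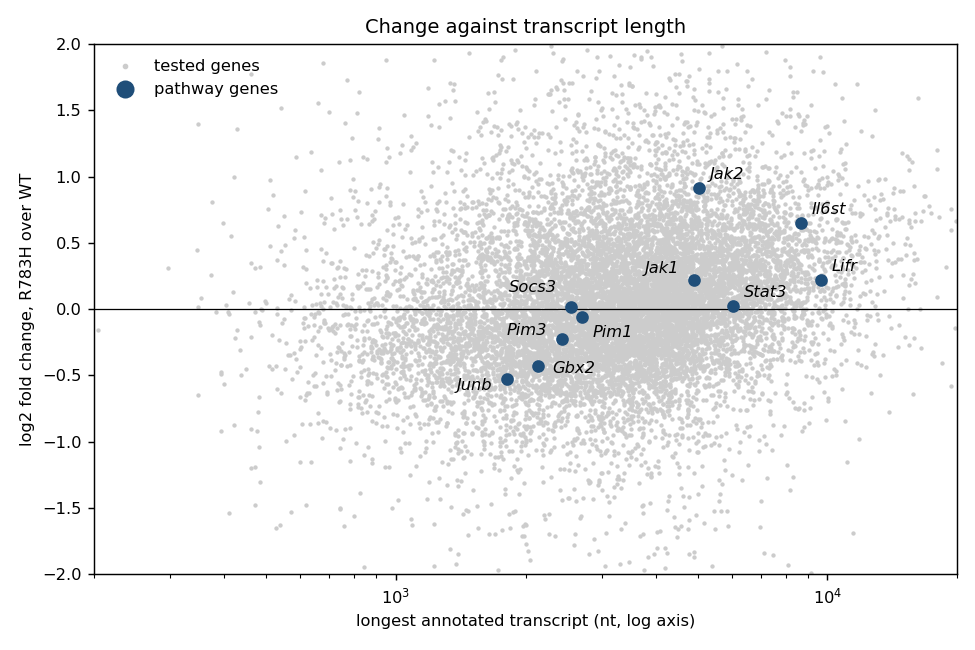
Log2 fold change (R783H over WT) against the length of the longest annotated transcript on a log axis, for tested genes (grey) and the 10 pathway genes (blue); 149 of 13067 genes lie outside the axes. The short targets Junb, Gbx2 and Pim3 lie below 0, and Lifr, Il6st, Jak1 and Jak2, which are longer, lie above it.

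Levels could be compared between genes on the scale of CPM per kb of the longest transcript. In WT the order was Pim3 (70.8 ± 3.12), Socs3 (39.3 ± 1.48), Stat3 (33.4 ± 0.471), Pim1 (27.1 ± 0.414) and Gbx2 (22.1 ± 0.665; SD, n = 3 each). Below them came Junb (14.7 ± 0.659), Jak1 (12.6 ± 0.560), Lifr (9.92 ± 0.637), Il6st (7.16 ± 0.584) and Jak2 (1.05 ± 0.103; SD, n = 3 each), and no neighbours in this order overlapped between libraries. In R783H the first 5 places were the same, followed by Jak1 (14.6 ± 0.123), Lifr (11.6 ± 1.24), Il6st (11.2 ± 0.268), Junb (10.2 ± 0.730) and Jak2 (1.98 ± 0.410; SD, n = 3 each). There the libraries of Lifr overlapped with those of Il6st and of Junb, so these places are not separate. With merged exons as the length, the mean of Stat3 dropped behind those of Pim1 and Gbx2 in WT, and that of Lifr stood ahead of Jak1. There the WT libraries of Stat3 overlapped with those of Pim1 and Gbx2, and those of Lifr with Jak1, so these places are not separate. With the shortest coding transcript, which is only 201 nt for Il6st, Il6st came first in both groups, so the order depends on the transcript chosen.

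**Figure D4:**
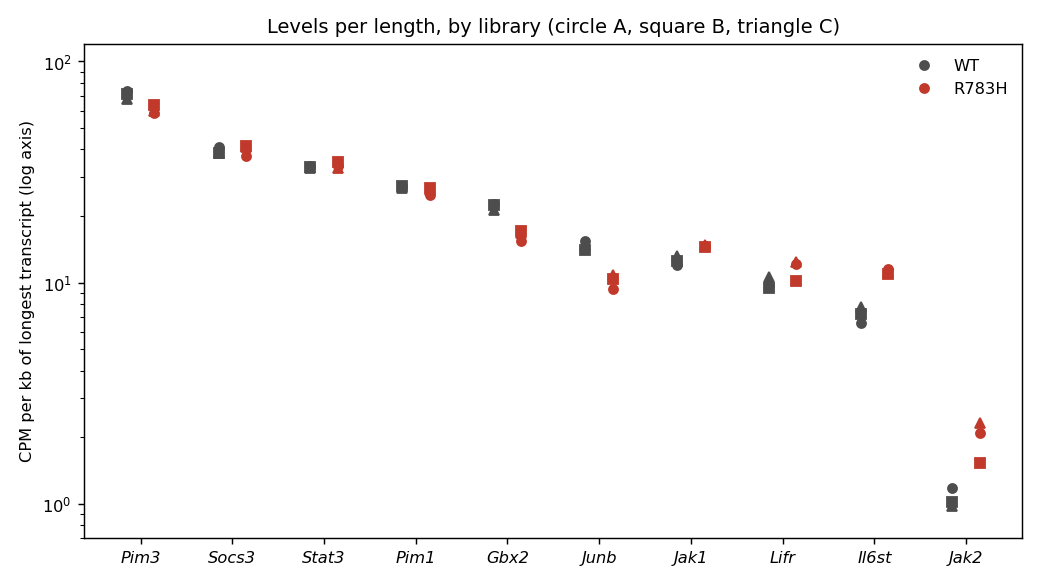
CPM per kb of the longest annotated transcript (log axis) in each library, with genes ordered by their WT mean. Pim3 is highest in both groups and Jak2 lowest, and Junb sits above Jak1, Lifr and Il6st in WT but not in R783H.

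The rest of the pathway was read from lists of 51 further genes, of which 44 were tested. Of these 44, 24 were called, 11 higher and 13 lower (54.5%, beside the 64.5% of all tested genes), with a median log2 fold change of 0.03. Lif itself, the gene of the ligand, was low, at 4.38 ± 0.461 CPM in R783H and 4.01 ± 0.221 in WT (SD, n = 3 each), and did not pass the test (log2 fold change 0.13, SE 0.13). Of 9 cytokine genes of the gp130 family 3 were tested and 0 called by edgeR, with 1 at an unadjusted p under 0.05, 0 by DESeq2 and 0 by limma-voom. Of the other receptors of the family 1 of 4 tested was called, Cntfr, the receptor subunit for ciliary neurotrophic factor, which changed by -1.62 (SE 0.18) from 3.17 ± 0.395 to 1.02 ± 0.133 CPM (SD, n = 3).

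Both other Janus kinases were called higher. Tyk2, which also binds gp130, was at 68.7 ± 1.12 CPM in WT and rose to 84.65 ± 5.35 CPM in R783H (SD, n = 3 each; log2 0.30, SE 0.05; edgeR adjusted p 5.31e-04). Jak3, which pairs with the common gamma chain of interleukin receptors, rose by 0.15 (SE 0.05) and lost its call with DESeq2, without R783H A or without WT C. With Jak1 and Jak2, 4 of 4 JAK genes were called higher with TMM scaling, where 33.5% of all tested genes were. With so few genes this is a description of the list. Per length, the order in WT was Jak3 (24.3 ± 0.958 CPM per kb), Tyk2 (14.2 ± 0.233), Jak1 and then Jak2 (SD, n = 3 each).

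Of the 6 other STAT genes 3 were called higher and 1 lower (66.7% called, near the 64.5% of all tested genes). Stat5b rose by 0.46 (SE 0.09), Stat6 by 0.31 (SE 0.05) and Stat2, which acts in interferon signalling, by 0.58 (SE 0.05), from 64.3 ± 2.61 to 96.4 ± 3.68 CPM (SD, n = 3). Stat4 changed by -0.62 (SE 0.13) at a low level, 3.76 ± 0.157 CPM in WT (SD, n = 3).

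Among 14 further negative regulators 3 were called higher and 2 lower (35.7% called, beside the 64.5% of all tested genes). Ptpn1, a phosphatase that acts on JAK2 and TYK2, was at 81.3 ± 1.08 CPM in WT and fell to 48.9 ± 2.13 CPM in R783H (SD, n = 3 each; log2 -0.73, SE 0.05; edgeR adjusted p 4.24e-07). Socs1, a JAK inhibitor of the same family as Socs3, changed by -0.61 (SE 0.12) from 5.12 ± 0.477 to 3.33 ± 0.212 CPM (SD, n = 3). Socs5 rose by 0.54 (SE 0.07), Pias1 by 0.29 (SE 0.07) and Pias4 by 0.17 (SE 0.05), the last without a call in DESeq2 or without WT C.

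All 3 genes of the SHP2 branch were called lower, by small amounts, where 30.9% of all tested genes were. Ptpn11 changed by -0.27 (SE 0.04), from 178 ± 2.90 to 148 ± 3.52 CPM (SD, n = 3), Gab1, the adaptor that binds SHP2, by -0.13 (SE 0.04) and Grb2, the adaptor that links to RAS, by -0.12 (SE 0.04). The call of Grb2 was lost under 7 of 16 alternatives, among them those without R783H C, WT A, WT B or WT C. Scaling by library size alone left 1 of the 3 called, Ptpn11. With the length and GC offset Ptpn11 moved to -0.48 (SE 0.03) and Gab1 to -0.22 (SE 0.03). Grb2 moved to -0.07 (SE 0.04) there and was not called (edgeR adjusted p 0.110).

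Of 12 further targets of LIF and STAT3, the test called 3 higher and 6 lower, beside 33.5% higher and 30.9% lower over all tested genes. Their median log2 fold change was -0.21. Myc, which LIF sustains in these cells and which the MEK and GSK3 pathways also regulate, was at 65.4 ± 2.33 CPM in WT and fell to 19.96 ± 1.11 CPM in R783H (SD, n = 3 each; log2 -1.71, SE 0.06). Klf4, the target through which LIF feeds the pluripotency network, stood at 535 ± 16.5 CPM in R783H and 538 ± 3.84 in WT (SD, n = 3 each), with a log2 fold change of -0.01 and a 95% interval of -0.10 to 0.08. Tfcp2l1, another such target, was called higher at 0.17 (SE 0.05) with overlapping groups, and its sign turned with the length and GC offset (-0.11, called lower). Leaving out R783H A, R783H C, WT A or WT B ended the call as well, with an adjusted p of up to 0.0845 in edgeR. Pramel7 rose by 1.10 (SE 0.17), but at 2.41 ± 0.071 CPM against 1.12 ± 0.0447 (SD, n = 3 each). Sall4 changed by -0.36 (SE 0.05) and Bcl3 by -0.32 (SE 0.07), the latter without a call under the offset. Jak3, Stat2, Stat6, Socs5, Pias1, Pias4, Ptpn11, Gab1, Grb2, Sall4, Bcl3, Ier3, Dnmt3b and Otx2 were named after their values were seen. So were the naive markers Tbx3, Dppa5a, Fgf4, Pou5f1, Nanog, Zfp42, Sox2 and Esrrb, and the markers Pou3f1, Gata4, Sox7 and Eomes.

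**Figure D5:**
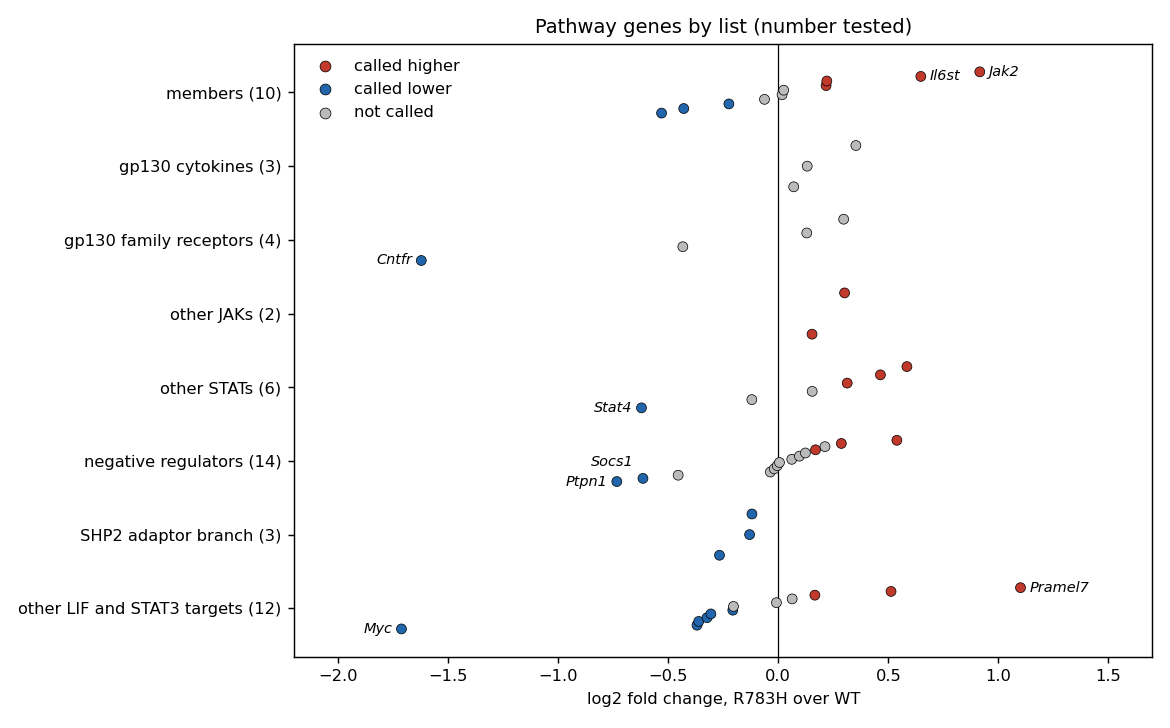
Log2 fold change (R783H over WT) of every tested gene of each list, with called genes in red (higher) or blue (lower) and the others in grey; called genes that changed at least 1.5-fold are named. The SHP2 list lies below 0 and the other JAK genes above it, while the lists of STAT genes, negative regulators and targets lie on both sides.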

How the data were processed

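Poly(A)-selected RNA of 6 libraries was sequenced, and the authors deposited 1 table of raw read counts per gene with Entrez Gene identifiers, as is seen from the values, which are all whole and do not sum to a fixed total. HISAT2, SAMtools, CASAVA 1.4 and the build mm10 are named in the submitters' processing notes. Counting tool, annotation and strand use are not given in the sources used here. Columns were matched to samples by title, with 0 left unassigned. Symbols and coordinates came from RefSeq (GRCm38.p6; 25275 identifiers matched), promoters from the same build (all 10 genes matched), and lengths from GENCODE M21.

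Genes were filtered with filterByExpr (minimum count 10, total 15) and scaled with TMM, and group was the single term of edgeR's quasi-likelihood test (edgeR 4.0.16, R 4.3.3), two-sided, with p adjusted over all 14199 tested genes by Benjamini-Hochberg and a threshold of 0.05. The standard error is the log2 fold change divided by the square root of F. The steps were run on simulated counts with few changed genes, the same dispersion for every gene and no trend with length or GC. That check differs from these data in each of these points, so it does not show how well the calls hold here. Alternatives were RLE, upper-quartile and no factors, no filter, at least 10 counts in every library, DESeq2 1.42.0, limma-voom (limma 3.58.1), a replicate block, a length and GC offset (mgcv 1.9.3; 13067 genes), equal depth and each library left out. Transcripts of the 10 genes were compared with all others with BLAST 2.17.0 (98% identity over 100 nt), which found only the antisense partners of Gbx2, Junb and Pim1.

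The members and lists were chosen with earlier results of these data known. The rule named all 10 members, in each other list up to 4 called genes that changed at least 1.5-fold, and Tyk2, Stat5b, Klf4, Tfcp2l1, Lif and Trim71, besides an item that is not reported here. Reads carry no molecular identifiers, so precision was taken from the spread between libraries.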

Additional observations from a re-analysis of the deposited data

How the results depend on the processing

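Il6st, Jak1, Jak2, Junb and Gbx2 kept direction and call under all 16 alternatives. Pim3 lost its call with the length and GC offset alone, and Lifr with that offset (-0.080) and in 4 of the 6 fits that left out a library. Leaving out a library moved Stat3 from -0.022 to 0.032, Socs3 from -0.032 to 0.049, Lifr from 0.16 to 0.28 and Pim1 from -0.10 to -0.05. The length and GC offset gave -0.12 for Stat3 and 0.024 for Pim1. Socs3 was -0.0040 with RLE factors and -0.0052 with DESeq2, and Pim1 was 0.019 with library size alone. The median of the 10 genes, 0.02, was -0.00034 with RLE factors, -0.0015 with DESeq2 and 0.10 with library size alone, and ran from -0.027 to 0.039 with a library left out. The number of called members stayed within 1.5-fold of 7 throughout, as did that of the other pathway genes around 24. The background moved as well. Over all tested genes the share called was 46.5% with no filter (20190 genes), 49.0% with DESeq2 (16730 genes) and at most 69.1%, without R783H B. Of the cytokine genes 1 was called with library size alone and 1 with the offset, in place of 0. With the replicate block the members called were again 7, and 25 other pathway genes were called. Libraries of the same letter did not deviate together (correlations of -0.07, 0.0068 and 0.085), so the letters were not treated as pairs. The cause of the shifts with the offset was not tested. No group had enough libraries for a test of outlying samples.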
